A study of Mus musculus with 6 samples.

Results

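Serum amyloid A, orosomucoid, haptoglobin, hemopexin and lipocalin 2 are secreted proteins of the acute phase, and 10 mouse genes that encode them were followed here in liver: Saa1, Saa2, Saa3, Saa4, Orm1, Orm2, Orm3, Hp, Hpx and Lcn2. They were taken by gene symbol from the 21956 genes measured, and all 10 were present. Polyadenylated RNA was sequenced in bulk from the livers of 3 Sting fl/fl Cdh5-Cre+ mice (endothelial Sting knockout) and 3 Sting fl/fl Cdh5-Cre- mice (control). In both groups the gene carries floxed alleles, and every mouse was fed CDAHFD, a high-fat diet that lacks choline and supplies defined amino acids, for 10 weeks, beginning at 8 weeks of age, to produce steatohepatitis. Cdh5-Cre acts in vascular endothelium in general, not in the liver alone, and it was carried by the knockout group only, so that an effect of Cre and one of the deletion cannot be told apart. The hepatocytes that make most of these proteins are not the cells in which the deletion was directed.

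In the acute phase response, cytokines released at a site of injury or infection reach the liver and change what hepatocytes secrete. Interleukin 6 acts through Jak kinases and Stat3, interleukin 1 through NF-kB, and both are known to work on acute-phase promoters together with C/EBP factors. Proteins whose plasma level rises in this response are called positive acute-phase proteins, and those whose level falls, such as albumin, negative ones. The response is graded: in mice Saa1 and Saa2 are among the most strongly induced genes, whereas hemopexin and haptoglobin already circulate in quantity without a stimulus.

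Library totals ranged from 16704664 to 21025461 estimated counts. Although some labels name sinusoidal endothelial cells, the libraries were those of liver tissue: albumin (Alb) stood at 87391, 85176 and 97099 TPM (transcripts per 1000000, a level per length) in the knockout livers and 81087, 65798 and 85416 TPM in the control livers, against 20.4 to 32.1 TPM for the endothelial gene Pecam1 over all 6. Sting1 had 106, 114 and 80 counts in the knockout libraries, against 240, 365 and 226 in the control libraries, with no overlap; its log2 fold change was -1.29 (standard error 0.23), with an adjusted p of 0.357 in edgeR's quasi-likelihood test with Benjamini-Hochberg adjustment and of 0.00154 in DESeq2. Control replicate 2 stood apart, with a mean correlation of 0.953 with the other libraries, against 0.966 to 0.974 for the rest. The factors by which TMM scales libraries to one another were lower in every knockout library (0.922, 0.941 and 0.928) than in every control library (1.01, 1.26 and 0.975), so that scaled values in CPM (counts per 1000000) are raised in the knockout relative to unscaled ones.

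All 10 genes had a higher mean level in the knockout livers, and none passed the test over all genes. The edgeR quasi-likelihood test with Benjamini-Hochberg adjustment at 0.05 called 0 of 13197 genes (0.0%), and so 0 of the 10. At an unadjusted p under 0.05, 4 of the 10 were higher, namely Saa1, Saa2, Saa4 and Orm2, and 0 were lower, where 3.75% of all tested genes were higher and 7.0% lower. The same 4 were the ones whose CPM did not overlap between the groups, which held as a higher level for 7.25% of all genes. By the same measure 4 of 10 negative and 6 of 25 other positive acute-phase genes were higher without overlap. At an unadjusted edgeR p under 0.05, 1 of 10 negative genes, 2 of 25 other positive genes and 4 of 10 macrophage markers were higher. DESeq2 called 2 of the 10 as higher, Saa2 and Saa4, where it called 0.273% of 13187 genes as higher. The median log2 fold change of the 10 was 0.59, with values from 0.40 to 1.03, and that of all tested genes was 0.00826; all 10 were above 0, as were 51.2% of all tested genes. In bulk tissue, fewer cells of a type and less RNA per cell cannot be told apart.

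**Figure D1:**
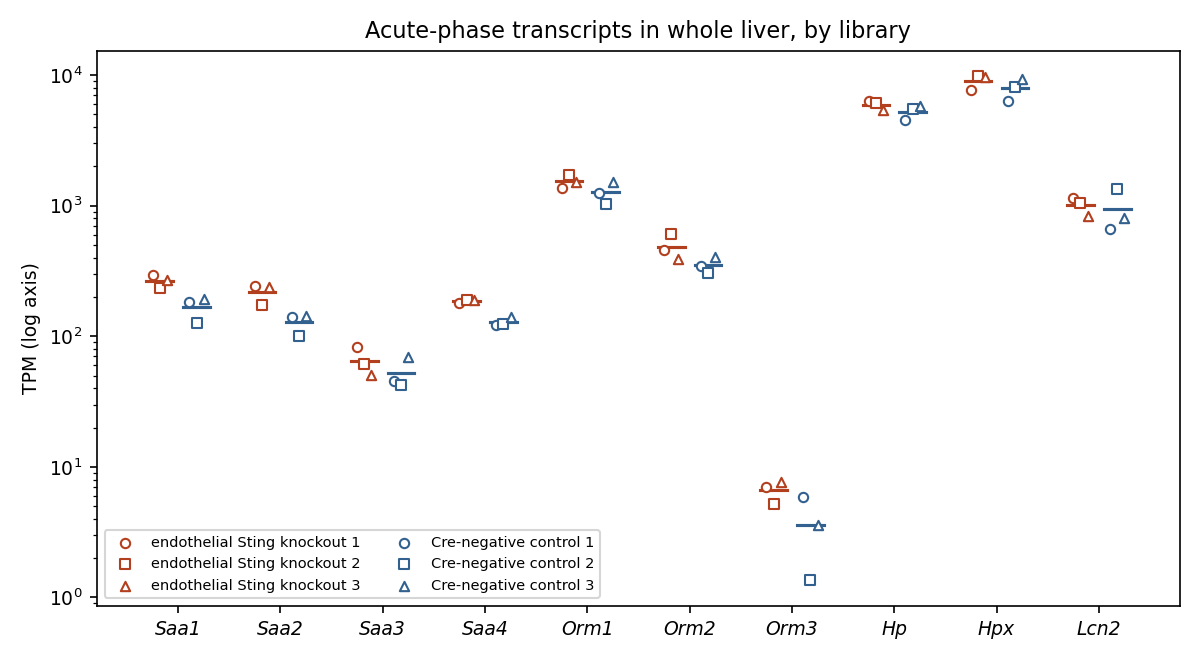
TPM on a log axis for each of the 10 acute-phase genes in the 3 endothelial Sting knockout livers (red, left of each pair) and the 3 Cre-negative control livers (blue, right); symbols mark replicates and bars mark group means. The groups are apart for Saa1, Saa2 and Saa4 and overlap for the other 7 genes, and the levels run from 1.35 TPM for Orm3 in control replicate 2 to 9840 TPM for Hpx in knockout replicate 2.

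The 10 genes spanned more than 3 orders of magnitude. Hpx was the most abundant transcript and Hp the next, followed by Orm1, Lcn2, Orm2, Saa1, Saa2, Saa4, Saa3 and Orm3. Orm1 and Lcn2 overlapped over the 6 libraries, with Orm1 higher in 5 of 6. Saa1 and Saa2 overlapped in range, but Saa1 was higher within 6 of 6 libraries. Saa2 and Saa4 also overlapped, with Saa2 higher in 4 of 6. Hp and Hpx together supplied 78.7% to 82.2% of the summed TPM of the 10 genes in each library. That sum was 17767, 19947 and 18538 TPM in the knockout livers and 13589, 16572 and 18399 TPM in the control livers. Control replicate 3 therefore lay above knockout replicate 1, and the summed levels overlapped.

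Serum amyloid A proteins are small apolipoproteins of high-density lipoprotein. Saa1 and Saa2 are the classical inducible forms made by hepatocytes, Saa3 is made also outside the liver, by macrophages and adipose tissue, and Saa4 is the constitutive form. In GRCm38 (GENCODE M21) the 4 genes lie together on chromosome 7. Saa3 (ENSMUSG00000040026) is at chr7:46711998-46715700 on the minus strand, Saa4 (ENSMUSG00000040017) at chr7:46727998-46732603 on the minus strand, Saa1 (ENSMUSG00000074115) at chr7:46740497-46742980 on the minus strand and Saa2 (ENSMUSG00000057465) at chr7:46751790-46754313 on the plus strand. Saa1 and Saa2 thus face away from each other.

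The 250 bases before the start of each of these genes, from RefSeq (GRCm38.p6), are printed 5′ to 3′ along the gene's own strand because Saa1, Saa2 and Saa4 were the members with no overlap in TPM and Saa3, their neighbour, did overlap. Capitals mark matches on either strand to the C/EBP letters TTGCNNAAT or to an NF-kB consensus of 10 letters. The windows are chr7:46742981-46743230 (minus strand) for Saa1, chr7:46751583-46751832 (plus strand) for Saa2, chr7:46715677-46715926 (minus strand) for Saa3 and chr7:46732604-46732853 (minus strand) for Saa4. The start is that of RefSeq, and the windows of Saa2 and Saa3 run into the GENCODE bounds given above.
Saa1: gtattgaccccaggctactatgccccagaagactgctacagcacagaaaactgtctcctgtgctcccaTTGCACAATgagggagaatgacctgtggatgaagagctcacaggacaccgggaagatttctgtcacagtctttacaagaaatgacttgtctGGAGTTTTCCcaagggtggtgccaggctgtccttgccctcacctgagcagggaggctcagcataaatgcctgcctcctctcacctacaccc
Saa2: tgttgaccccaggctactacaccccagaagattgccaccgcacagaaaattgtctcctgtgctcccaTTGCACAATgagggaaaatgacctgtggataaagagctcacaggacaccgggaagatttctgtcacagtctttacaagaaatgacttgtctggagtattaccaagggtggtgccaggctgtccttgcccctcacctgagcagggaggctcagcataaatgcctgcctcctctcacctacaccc
Saa3: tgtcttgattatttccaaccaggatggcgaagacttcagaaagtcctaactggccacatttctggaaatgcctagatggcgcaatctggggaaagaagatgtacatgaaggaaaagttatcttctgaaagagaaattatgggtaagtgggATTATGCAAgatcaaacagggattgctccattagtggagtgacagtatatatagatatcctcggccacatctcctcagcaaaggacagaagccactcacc
Saa4: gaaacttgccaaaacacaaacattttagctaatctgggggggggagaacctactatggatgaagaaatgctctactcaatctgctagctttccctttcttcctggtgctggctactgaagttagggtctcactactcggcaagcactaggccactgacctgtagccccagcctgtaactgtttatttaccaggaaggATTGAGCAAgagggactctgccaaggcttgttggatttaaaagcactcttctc
C/EBP factors are basic leucine zipper proteins that drive many hepatocyte genes. The C/EBP letters, chosen with the promoters in view, occurred in all 4 Saa promoters and in 2.11% of 32851 RefSeq promoters of this length. They were in 4 of the 8 promoters at hand for the 10 genes, and not in those of Orm2, Orm3, Hpx and Lcn2. In Saa1 and Saa2 the match was the same, TTGCACAAT, at 182 to 174 bases before the start in Saa1 and 183 to 175 in Saa2. In Saa3 the matched bases were ATTATGCAA, 100 to 92 before the start, and in Saa4 ATTGAGCAA, 53 to 45 before the start.

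The Saa1 and Saa2 promoters were 94.8% identical, with 11 mismatches and 2 gap bases. The NF-kB consensus was met in Saa1, 91 to 82 bases before the start, and not in the aligned bases of Saa2. Here both windows are given with the 10 bases of the Saa1 match in capitals.
Saa1 window: tgacttgtctGGAGTTTTCCcaagggtggt
Saa2 window: tgacttgtctGGAGTATTACcaagggtggt
Counted from 1 at the 5′ end of those 10 bases, the substitutions are T6A and C9A (the Saa1 base, then the Saa2 base). The NF-kB consensus was met in 9.55% of all promoters. RefSeq promoters were at hand for 8 of the 10 genes, all but Hp and Orm1. Among the 8, Lcn2 also met the NF-kB consensus, with GGAGTCCTCC at 43 to 34 bases before the RefSeq start. That promoter, chr2:32387740-32387989 on the minus strand, lies inside the GENCODE bounds of Lcn2. The STAT letters TTCNNNGAA occurred in 0 of the 8 (7.02% of all promoters), and a glucocorticoid receptor consensus in 0 of the 8 (0.387%). These letters were chosen with the promoters in view, a match does not show binding, and a missing match says only that these letters are not in this window.

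Saa1 stood at 295.4, 233.4 and 270.7 TPM in the knockout livers and at 184.0, 125.3 and 191.4 TPM in the control livers. Every knockout liver was above every control liver, and control replicate 2 was the lowest. The means were 266.5 ± 31.2 TPM and 166.9 ± 36.2 TPM (SD, n = 3 each), and the log2 fold change of the TMM-scaled counts was 0.87 (standard error 0.26). In edgeR the unadjusted p was 0.00945 and the adjusted p 0.379 (Benjamini-Hochberg); DESeq2's adjusted p was 0.0865.

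Saa2 stood at 240.9, 174.6 and 238.5 TPM in the knockout livers and at 140.9, 100.2 and 142.9 TPM in the control livers. The groups did not overlap here either, and the order of the libraries was the same as that of Saa1, with control replicate 2 again lowest. The log2 fold change was 0.97 (standard error 0.26; unadjusted p = 0.00468; edgeR's adjusted p = 0.367, Benjamini-Hochberg). In DESeq2 the adjusted p was 0.0416. Leaving out knockout replicate 2 (0.0317) or control replicate 3 (0.0169) kept that call, and it was lost when any of the other 4 libraries was left out, with adjusted p from 0.0749 to 0.396.

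The constitutive Saa4 stood at 181.3, 190.2 and 189.8 TPM in the knockout livers and at 121.0, 125.0 and 141.3 TPM in the control livers. The lowest knockout liver was thus above the highest control liver. The means were 187 ± 5.08 TPM and 129 ± 10.7 TPM (SD, n = 3 each), with a log2 fold change of 0.76 (standard error 0.18; unadjusted p = 0.00272; edgeR's adjusted p = 0.367, Benjamini-Hochberg). DESeq2's adjusted p was 0.0141. When a single library was left out it stayed under 0.05 for knockout replicate 1 (0.0414), for control replicate 2 (0.0203) and for control replicate 3 (0.000308). It was 0.0707 without knockout replicate 2, 0.216 without knockout replicate 3 and 0.125 without control replicate 1.

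Saa3 stood at 82.3, 61.7 and 50.3 TPM in the knockout livers and at 45.1, 42.3 and 70.0 TPM in the control livers. Control replicate 3 was above 2 of the 3 knockout livers, so that the groups overlapped. The log2 fold change was 0.50 (standard error 0.31; unadjusted p = 0.137; edgeR's adjusted p = 0.576, Benjamini-Hochberg), and it was 0.27 without control replicate 2, 0.29 without knockout replicate 1 and 0.88 without control replicate 3. The order of the libraries was not that of Saa1 and Saa2: control replicate 3 was the second highest of the 6 for Saa3. The exact permutation test over libraries (two-sided, on log2 CPM) gave p = 0.1 for Saa1, Saa2 and Saa4, the smallest that 3 against 3 allows, and p = 0.3 for Saa3.

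Saa1 and Saa2 are near-identical, so how their reads were divided is uncertain. Their transcripts (GENCODE M21) were 93.9% identical, with 34 mismatches, and 13.2% of the 50-base windows of Saa1, 74 of 560, also occurred in Saa2. Even so, the estimated counts of Saa1 and Saa2 were not whole in only 1 of 6 libraries, and those of Saa3 and Saa4 in 0. Saa1 took 54.2%, 56.2% and 52.2% of the pair's counts in the knockout libraries, against 55.8%, 54.5% and 56.4% in the control libraries, so that the split overlapped between the groups. Summed, Saa1 and Saa2 had 536.3, 408.0 and 509.2 TPM in the knockout livers and 324.9, 225.5 and 334.3 TPM in the control livers. The groups stayed apart in the sum, with a log2 fold change of 0.92 (standard error 0.26; unadjusted p = 0.00752; edgeR's adjusted p = 0.372, Benjamini-Hochberg). With Saa3 added, which shared 1.61% of the Saa1 windows, it was 0.87 (standard error 0.26).

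Levels of the inducible and the constitutive form can be set side by side per length. The ratio of Saa1 to Saa4 in TPM was 1.63, 1.23 and 1.43 in the knockout livers, against 1.52, 1.00 and 1.35 in the control livers. These ratios overlapped. The ratio of Saa1 to albumin was 0.00338, 0.00274 and 0.00279 in the knockout livers, against 0.00227, 0.00190 and 0.00224 in the control livers. Relative to albumin, a hepatocyte product, Saa1 was thus higher in every knockout liver than in every control liver. This did not hold for Hp, whose ratio to albumin was 0.0719, 0.0711 and 0.0552 in the knockout livers, against 0.0558, 0.0829 and 0.0678 in the control livers, with overlap.

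**Figure D2:**
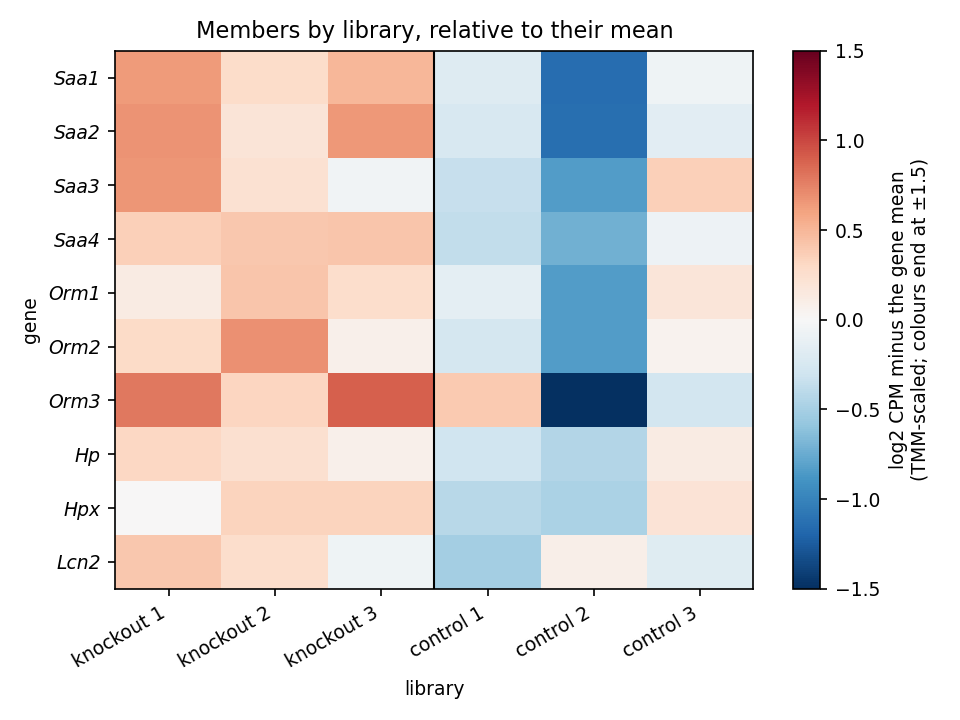
TMM-scaled log2 CPM of each acute-phase gene in each library minus the mean of that gene over the 6 libraries, with the 3 knockout libraries left of the line and the 3 control libraries right of it; red is above and blue below the gene's mean. Control replicate 2 is the lowest library for 9 of the 10 genes on this scale, Lcn2 being the exception, and control replicate 3 is above its gene mean for Saa3, Orm1, Orm2, Hp and Hpx.

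Orosomucoids, or alpha-1-acid glycoproteins, are heavily glycosylated lipocalins that bind basic drugs and lipids and modulate immune cells. The mouse genes Orm1 (ENSMUSG00000039196, chr4:63344560-63348163), Orm3 (ENSMUSG00000028359, chr4:63356162-63359511) and Orm2 (ENSMUSG00000061540, chr4:63362449-63365878) lie in this order on the plus strand of chromosome 4. Orm1 was the most abundant. It stood at 1372, 1721 and 1531 TPM in the knockout livers and at 1258, 1035 and 1512 TPM in the control livers, where control replicate 3 was above knockout replicate 1. Its log2 fold change was 0.48 (standard error 0.27; unadjusted p = 0.104; edgeR's adjusted p = 0.546, Benjamini-Hochberg), and it was 0.26 without control replicate 2 and 0.73 without control replicate 3.

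Orm2 stood at 454.3, 607.3 and 393.8 TPM in the knockout livers and at 342.6, 304.8 and 407.3 TPM in the control livers. The groups overlapped in TPM, through control replicate 3 and knockout replicate 3, and not in TMM-scaled CPM, where the means were 223.4 ± 48.8 and 140.2 ± 41.3 (SD, n = 3 each). Orm2 had a log2 fold change of 0.67 (standard error 0.25; unadjusted p = 0.0257; edgeR's adjusted p = 0.405, Benjamini-Hochberg), and DESeq2's adjusted p was 0.198.

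Orm3 is the minor gene of the group. It had 61, 41 and 64 counts in the knockout libraries, against 49.02, 9 and 32 counts in the control libraries, or 7.0, 5.17 and 7.64 TPM in the knockout and 5.90, 1.35 and 3.56 TPM in the control livers. Control replicate 1 was above knockout replicate 2. Its log2 fold change of 1.03, the highest of the 10 genes, had the widest standard error, 0.53 (unadjusted p = 0.0869; edgeR's adjusted p = 0.522, Benjamini-Hochberg). Leaving out control replicate 2 gave 0.60, and leaving out control replicate 1 gave 1.62.

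The division of reads within the orosomucoids is less certain than within the serum amyloids. Orm1 and Orm2 transcripts were 91.0% identical and shared 148 of 726 50-base windows of Orm1 (20.4%), and their estimated counts were not whole in 6 of 6 libraries. Orm3 was 86.1% identical to Orm1 and 88.0% to Orm2. Orm2 took 24.8%, 26.0% and 20.4% of the family's counts in the knockout libraries, against 21.3%, 22.7% and 21.2% in the control libraries, and these shares overlapped. Summed over the 3 genes, the level was 1833, 2334 and 1932 TPM in the knockout livers and 1606, 1341 and 1923 TPM in the control livers. Control replicate 3 lay above knockout replicate 1 in this sum, and the log2 fold change was 0.53 (standard error 0.27; unadjusted p = 0.0813; edgeR's adjusted p = 0.515, Benjamini-Hochberg).

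Haptoglobin binds free haemoglobin and hemopexin binds free haem, and the complexes are cleared by the macrophage receptor Cd163 (for haptoglobin in humans) and by Lrp1. Hp (ENSMUSG00000031722) is at chr8:109575128-109579172 and Hpx (ENSMUSG00000030895) at chr7:105591613-105600137, both on the minus strand. Hp stood at 6287, 6059 and 5358 TPM in the knockout livers and at 4521, 5453 and 5793 TPM in the control livers. Control replicates 2 and 3 lay above knockout replicate 3. Hp had a log2 fold change of 0.40 (standard error 0.24; unadjusted p = 0.127; edgeR's adjusted p = 0.567, Benjamini-Hochberg).

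Hpx stood at 7703, 9840 and 9665 TPM in the knockout livers and at 6305, 8051 and 9332 TPM in the control livers. Knockout replicate 1 was below control replicates 2 and 3. Hpx had a log2 fold change of 0.43 (standard error 0.27; unadjusted p = 0.148; edgeR's adjusted p = 0.588, Benjamini-Hochberg), and 0.68 without control replicate 3. The ratio of Hpx to Hp in TPM was 1.23, 1.62 and 1.80 in the knockout livers, against 1.39, 1.48 and 1.61 in the control livers, which overlapped.

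Of 12 clearance and receptor genes tested, 9 were above 0, with a median of 0.17, and 0 passed edgeR's adjusted test or DESeq2's. In log2(TPM + 1) 2 of 11 were above 0, with a median of -0.08. The edgeR median was 0.06 without knockout replicate 2 and 0.08 without control replicate 2. Cd163 was low, at 1.33, 0.727 and 1.29 TPM in the knockout livers and 0.379, 0.235 and 0.896 TPM in the control livers, with an unadjusted edgeR p of 0.0475. Lrp1 stood at 139.1, 119.3 and 146.2 TPM in the knockout and 125.0, 138.2 and 116.6 TPM in the control livers, which overlapped in TPM. In TMM-scaled CPM Lrp1 was higher without overlap, at a log2 fold change of 0.21 and an unadjusted edgeR p of 0.294. Hmox1, the haem oxygenase that degrades the haem taken up, stood at 114.6, 198.9 and 133.5 TPM in the knockout and 98.3, 235.4 and 139.3 TPM in the control livers, with overlap in TPM.

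Lcn2 encodes lipocalin 2, which binds bacterial siderophores and so withholds iron; it is made by neutrophils and, in an inflamed liver, by hepatocytes. Lcn2 (ENSMUSG00000026822) is at chr2:32384633-32388252 on the minus strand. It stood at 1145, 1054 and 833 TPM in the knockout livers and at 666, 1335 and 806 TPM in the control livers. Control replicate 2, the lowest library for 6 of the 10 genes in TPM, was the highest for Lcn2. The log2 fold change was 0.40 (standard error 0.22; unadjusted p = 0.103; edgeR's adjusted p = 0.545, Benjamini-Hochberg), and the ratio of Lcn2 to Hp was 0.182, 0.174 and 0.156 in the knockout livers, against 0.147, 0.245 and 0.139 in the control livers.

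Since neutrophils also hold Lcn2, their markers are given beside it. The summed CPM of 13 neutrophil markers, on total counts, was 128.3, 26.1 and 19.8 in the knockout libraries, against 20.8, 49.6 and 32.6 in the control libraries. Of 10 tested, 8 were above 0, with a median log2 fold change of 1.09, and 0 had an unadjusted p under 0.05; Ly6g, Camp and Elane were too low to test, and Ly6g, a defining marker, was at 0.566, 0 and 0 TPM in the knockout and 0.296, 0 and 0 TPM in the control livers. Knockout replicate 1 stood out, with S100a8 at 56.8 TPM against 8.62 and 8.73 TPM in the other knockout livers and 8.04, 12.9 and 12.9 TPM in the control livers. Without knockout replicate 1 the median of the neutrophil markers was -0.34, with 1 of 10 above 0, so that their direction rested on that library. In the same fit the log2 fold change of Lcn2 was 0.30. The part of neutrophils in the Lcn2 level was not tested.

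**Figure D3:**
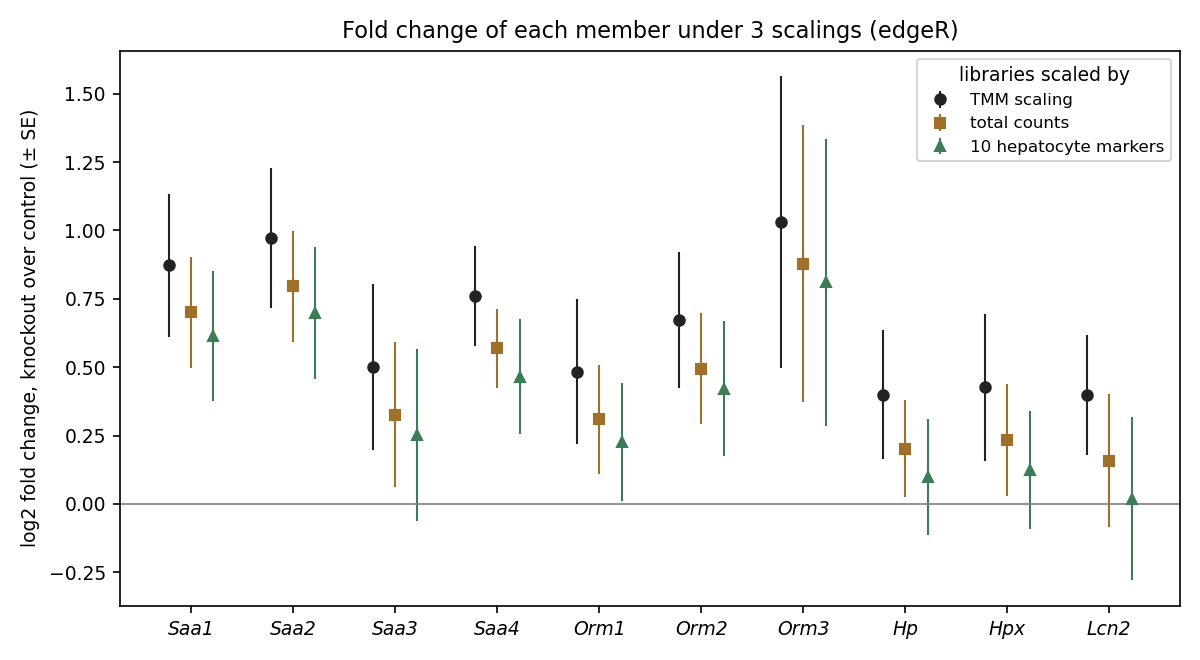
Log2 fold change of the 10 acute-phase genes, knockout over control, in edgeR with libraries scaled by TMM (black circles), by total counts (brown squares) and by 10 hepatocyte markers (green triangles); bars are standard errors. Every point is above 0 and falls in that order of scaling, down to 0.02 for Lcn2 with hepatocyte markers, while Saa1, Saa2 and Saa4 remain at 0.61, 0.70 and 0.46 there.

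The size of these differences depended on the scaling. With total counts and no scaling factors, the median of all tested genes shifted to -0.21, and that of the 10 acute-phase genes was 0.41, or 0.62 relative to all genes. On that scale 3 of the 10, Saa1, Saa2 and Saa4, did not overlap between the groups, where 1.74% of all genes did so in the higher direction; in TPM the same 3 did so, against 1.38% of all genes. Lcn2 had a log2 fold change of 0.16 on total counts, Hp 0.20 and Hpx 0.23. Scaled to 10 hepatocyte markers, an alternative chosen after seeing the data, the values were 0.61 for Saa1, 0.70 for Saa2, 0.46 for Saa4, 0.10 for Hp, 0.12 for Hpx and 0.02 for Lcn2. The median of all genes then lay at -0.34 and that of the 10 at 0.34. The point estimates of the 10 stayed above 0 under each of these scalings. Scaled to hepatocyte markers, those of Saa3, Hp, Hpx and Lcn2 were within a standard error of 0. These standard errors were 0.31, 0.21, 0.22 and 0.30.

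Markers of hepatocytes and of other liver cell types are given beside these genes. On the TMM scale 9 of 10 hepatocyte, 9 of 10 macrophage and 8 of 9 endothelial markers were above 0. Of cholangiocyte markers 0 of 7 were, and of stellate cell markers 1 of 7. The median was 0.41 for hepatocyte, 0.52 for macrophage, 0.25 for endothelial and -0.21 for stellate cell markers. That of the 10 acute-phase genes was 0.59. In log2(TPM + 1) 9 of 10 hepatocyte, 4 of 9 endothelial and 7 of 10 macrophage markers were above 0. Their medians on that scale were 0.16, -0.04 and 0.32, against 0.38 for the 10 acute-phase genes. Tat was the hepatocyte marker below 0, at -0.77 on the TMM scale. The adjusted test of edgeR called none of these markers, as it called 0 of all genes. At an unadjusted edgeR p under 0.05, 5 of 7 cholangiocyte markers were lower, against 7.0% of all genes. By the same measure 4 of 10 macrophage markers were higher, against 3.75%. The cholangiocyte median was -1.51, and -1.03 without control replicate 2. The summed CPM of 10 hepatocyte markers, on total counts, was 110469, 106602 and 122950 in the knockout libraries, against 102442, 79497 and 108617 in the control libraries. The lowest was control replicate 2. Macrophage markers summed to 1982, 2147 and 1483 in the knockout libraries, against 1239, 2313 and 1727 in the control libraries, and endothelial markers to 486.6, 474.8 and 496.9 against 415.9, 533.7 and 477.2, both with overlap. Cholangiocyte markers summed to 512.1, 227.6 and 283.8 in the knockout libraries, against 825.5, 1576 and 503.4 in the control libraries, and stellate cell markers to 414.4, 410.2 and 430.5 against 626.0, 1048 and 444.7. Control replicate 2 held the most of both lists, and control replicate 3 the least among the controls. The part of this makeup in the levels of the acute-phase genes was not tested.

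The factors that act on these promoters did not all differ in one direction. Of 8 factors tested, 5 were above 0 and 3 below. The adjusted test of edgeR called 0 and DESeq2 called 2, Cebpa as higher and Cebpd as lower. Of all 13187 genes, DESeq2 called 36 as higher and 83 as lower. Cebpa is a C/EBP factor of the differentiated hepatocyte. It stood at 176.7, 134.4 and 223.6 TPM in the knockout livers and at 105.1, 110.6 and 115.0 TPM in the control livers. The groups did not overlap for Cebpa, where 1.38% of all genes were higher without overlap in TPM. The log2 fold change was 0.92 (standard error 0.23; unadjusted p = 0.00302; edgeR's adjusted p = 0.367, Benjamini-Hochberg; DESeq2's adjusted p = 0.0156). Leaving out knockout replicate 2 (0.00123) or control replicate 3 (0.00963) kept the DESeq2 call, and leaving out any of the other 4 libraries ended it, with adjusted p from 0.0505 to 0.261.

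Cebpd, the C/EBP factor that is itself induced in the acute phase, stood at 4.49, 6.83 and 5.93 TPM in the knockout livers and at 15.4, 13.5 and 11.0 TPM in the control livers. Every knockout liver was below every control liver, and the share of all genes of which this held in TPM was not counted. Cebpd had a log2 fold change of -0.97 (standard error 0.21; unadjusted p = 0.00131; edgeR's adjusted p = 0.357, Benjamini-Hochberg; DESeq2's adjusted p = 0.0145). In DESeq2 the adjusted p was 0.0690 without knockout replicate 1, 0.150 without knockout replicate 3 and 0.205 without control replicate 1, and stayed under 0.05 without each of the other 3. Cebpb, which mediates much of the interleukin 6 response, stood at 63.8, 89.9 and 91.8 TPM in the knockout and 117.4, 119.6 and 122.7 TPM in the control livers. These did not overlap in TPM, but the log2 fold change in edgeR was -0.32 with an unadjusted p of 0.120.

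**Figure D4:**
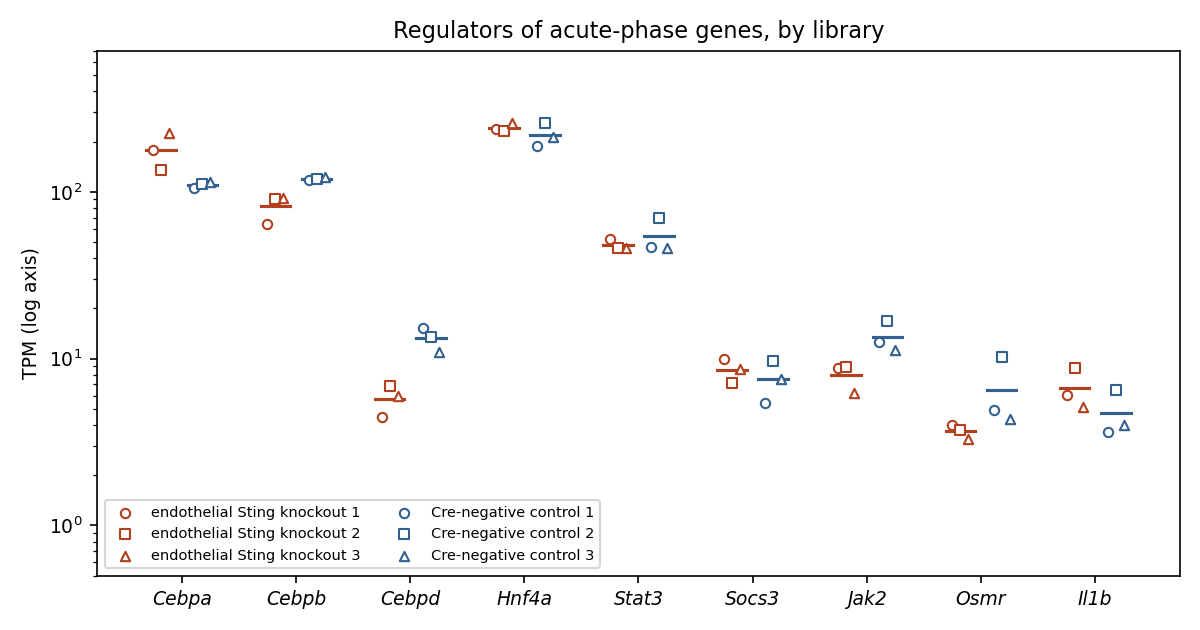
TPM on a log axis of 9 regulators of acute-phase genes in the 3 endothelial Sting knockout livers (red, left of each pair) and the 3 Cre-negative control livers (blue, right); symbols mark replicates and bars mark group means. In TPM Cebpa is higher and Cebpb, Cebpd, Jak2 and Osmr are lower in every knockout liver than in every control liver. The other 4 genes overlap in TPM, but in TMM-scaled CPM Hnf4a and Il1b are higher without overlap. The share of all genes that are lower without overlap in TPM was not counted. The median of all genes in log2(TPM + 1) was -0.20.

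Cytokines and their signalling genes were mixed. Of 23 genes, 21 were tested, 11 above 0 and 10 below, with a median of 0.04. At an unadjusted edgeR p under 0.05, 2 were higher and 2 lower, where 3.75% of all tested genes were higher and 7.0% lower. The adjusted tests of edgeR and DESeq2 called 0 of the 21. In log2(TPM + 1) 4 of 20 were above 0, with a median of -0.22. The edgeR median lay on either side of 0 when 1 library was left out, from -0.02 without knockout replicate 2 to 0.09 without knockout replicate 3. Il6 was near the limit of detection, at 0.276, 0.503 and 0 TPM in the knockout and 0.213, 0.120 and 0.248 TPM in the control livers, and was not tested. Il1b, the inducer that acts through NF-kB, stood at 6.02, 8.84 and 5.10 TPM in the knockout and 3.63, 6.50 and 3.99 TPM in the control livers, with overlap in TPM and a log2 fold change of 0.78 (edgeR's adjusted p = 0.392, Benjamini-Hochberg).

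Jak2, a kinase of the interleukin 6 receptor complex, stood at 8.82, 8.96 and 6.21 TPM in the knockout and 12.6, 16.8 and 11.3 TPM in the control livers, without overlap, at a log2 fold change of -0.48. The oncostatin M receptor Osmr was also lower in each knockout liver, at 4.01, 3.71 and 3.29 TPM against 4.93, 10.3 and 4.32 TPM, at -0.51. Socs3, which is induced by Stat3 and inhibits the same pathway, stood at 9.94, 7.14 and 8.71 TPM in the knockout and 5.43, 9.63 and 7.51 TPM in the control livers, with a log2 fold change of 0.46. Stat3 itself overlapped, at 52.0, 46.2 and 46.0 TPM against 46.9, 69.3 and 46.2 TPM. None of these 4 passed edgeR's adjusted test, and the share of all genes lower without overlap in TPM was not counted.

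Other positive acute-phase genes lay above 0 in 23 of 25 cases, with a median of 0.37. In edgeR and DESeq2, 0 of 25 passed the adjusted test. On the log2(TPM + 1) scale 17 of 25 were above 0 and their median was 0.15, with all genes at a median of -0.20. The copper carrier Cp and the endotoxin co-receptor Cd14 were the genes below 0, at -0.06 and -0.31. Fgl1, a fibrinogen-like protein of hepatocytes, stood at 523.8, 472.0 and 335.3 TPM in the knockout and 334.4, 423.2 and 333.7 TPM in the control livers. C4b, a complement component, stood at 366.7, 397.3 and 466.7 TPM against 315.3, 357.4 and 330.2 TPM. These were the genes of the list with an unadjusted p under 0.05. The fibrinogen chains Fga, Fgb and Fgg, classical acute-phase proteins, had log2 fold changes of 0.15, 0.24 and 0.21, and Crp, a minor acute-phase protein in mice, 0.35.

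Negative acute-phase genes lay on the same side. All 10 tested were above 0, with a median of 0.41, and 0 passed the adjusted test in edgeR or DESeq2. That median was 0.23 without control replicate 2, and also 0.23 on total counts with 9 of 10 above 0. Alb had a log2 fold change of 0.42. Trf, the iron carrier transferrin, stood at 13280, 14922 and 12374 TPM in the knockout and 10614, 12335 and 12791 TPM in the control livers, with overlap in TPM. In TMM-scaled CPM 4 of the 10, Alb, Trf, Ahsg and F12, were higher without overlap, and in TPM 1 of the 10. F12, at a log2 fold change of 0.54, was the only gene of the list with an unadjusted edgeR p under 0.05 (0.0222). Apoa1, the main apolipoprotein of high-density lipoprotein, had a log2 fold change of 0.42 and Ahsg, the serum glycoprotein fetuin-A, 0.48. Positive and negative acute-phase genes therefore did not lie on opposite sides of 0 in these livers, on the TMM scale or in log2(TPM + 1), where the negative list had 10 of 10 above 0 and a median of 0.18.

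The genes whose pattern over the 6 libraries was most like that of a member were found by the root mean square difference of centred log2 CPM. For Saa2 they were Calhm6 (0.146), Exoc3l2 (0.146) and Slc37a4 (0.150), the last encoding the glucose 6-phosphate transporter. For Orm3 they were Slc15a5 (0.228), Csrp3 (0.229) and Car5a (0.236), a mitochondrial carbonic anhydrase. For Hpx they were Pdzk1 (0.0615), Aox3 (0.0754) and Mtg2 (0.0797), and for Lcn2 the leukocyte GTPase Rac2 (0.0581), Serpina3g (0.0656) and the myeloid hexokinase Hk3 (0.0674). All were picked as the nearest of all genes tested, over only 6 libraries. A shared cell source or shared regulation was not tested.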

How the data were processed

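RNA was measured in the livers of 3 endothelial Sting knockout and 3 control mice. The 10 genes and the gene lists were chosen with earlier results of these data known. The authors made both units, estimated counts and TPM. Tools named in the submitters' processing notes are RSEM 1.3.3, HISAT2 2.2.1, fastp 0.23.2 and DESeq2 1.38.3, with GRCm38 and mm10 named as build. For the annotation release the sources used here give nothing. The libraries were strand-specific per the labels' protocols, with no word on how strand entered the counting. Of the deposited estimated counts 6.93% were not whole; they were rounded before testing. Levels are the deposited TPM, which are scaled to length and a fixed sum.

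Groups were compared by the robust quasi-likelihood test of edgeR 4.0.16 after filterByExpr and TMM scaling, with p-values adjusted by Benjamini-Hochberg over the 13197 genes kept and a threshold of 0.05; log2 CPM used a prior count of 2. Marker sums and total-count CPM used no scaling factors. Each gene also had a two-sided exact permutation test over libraries. Alternatives were DESeq2 1.42.0, limma-voom and limma 3.58.1 on log2(TPM + 1) and log2(TPM + 0.1), other scalings and filters, summed paralogues, a replicate block and each library left out. Scaling to 10 hepatocyte markers and DESeq2 with each library left out were added after seeing the data. Named genes outside the 10 were drawn from the first of each marker list, up to 4 with the smallest p of each list, and the 3 nearest in pattern. Not all genes that met this rule are given. Crp, Cp, Cd14, Apoa1, Hmox1, Stat3, Il6, Cebpb and the fibrinogen chains were chosen after their values were seen. The fits were tested on simulated data. Replicates are described in the labels as biological; no 2 libraries of a group agreed within counting noise. Promoters (RefSeq, GRCm38.p6) were matched by symbol and transcripts and positions came from GENCODE M21. The software was Python 3.11.15 with matplotlib 3.10.9, and R 4.3.3.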

Additional observations from a re-analysis of the deposited data

How the results depend on the processing

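The point estimate of each of the 10 genes stayed above 0 under every alternative run, in some runs within a standard error of 0. None passed the adjusted test in edgeR under other scalings or filters, with paralogues summed, with a replicate block or with 1 library left out, nor in limma-voom or limma on TPM. DESeq2 called 2 of the 10 and 119 genes in all; it also called 2 promoter factors, 1 cholangiocyte marker and Sting1 at -1.28. Without knockout replicates 1, 2 and 3 in turn, DESeq2 called 241, 140 and 29 genes, and without control replicates 1, 2 and 3 it called 58, 54 and 292. Of the 10 it then called 1, 1 and 0, and 0, 1 and 6, the 6 being Saa1, Saa2, Saa4, Orm2, Hp and Hpx. Its Sting1 call was lost without knockout replicate 3, at -1.15 with an adjusted p of 0.0606, and kept in the other fits, at -1.29 and -1.40 without knockout replicates 1 and 2 and -1.35, -1.06 and -1.40 without control replicates 1, 2 and 3. With 1 library left out, edgeR called 0 to 2 genes, and the median of the 10 ranged from 0.52 to 0.89 in edgeR and from 0.51 to 0.90 in DESeq2, the highest without control replicate 3. With hepatocyte scaling it was 0.34. The replicate numbers were not shown to pair the samples: deviations of same-numbered libraries correlated at 0.115, -0.00678 and 0.133 across genes. A replicate block gave 5 called genes, none of the 10 among them. The causes of these differences were not tested. With 3 livers a group the exact test cannot go below 0.1, and Orm3 had only 9 to 64 counts a library.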
